A study of Mus musculus with 7 samples.

Results

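The genes described here encode the ligands, latency proteins, antagonists, receptors, Smad proteins and Id targets of the TGF-beta, activin and BMP pathway. They were chosen by name: 48 gene symbols were listed, and a gene counted as measured when the array annotation gave its transcript cluster exactly 1 symbol. By this rule 44 of the 48 were measured, among 18820 genes in all. Fst, Fstl3 and Tgfbr2 stood only in clusters that carry a second gene symbol, and Chrd was not listed in the annotation used here. No filter on dim genes was applied, so all 44 entered the test.

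The cells were 3T3-L1, an established line of mouse fibroblasts committed to the fat lineage, which turn into fat-storing cells under a hormone mixture. All cultures were induced for 2 days with isobutylmethylxanthine, dexamethasone and human insulin and then kept in human insulin alone. From the start until RNA was taken on day 7, cultures of the DMSO group (4 arrays) received the solvent. Those of the SCD inhibitor group (3 arrays) received 1 µM of a purchased inhibitor of stearoyl-CoA desaturase, the enzyme that makes monounsaturated from saturated fatty acids. The labels do not name the compound, and a single cell line in culture limits the model. Expression levels are given on the log2 scale, and differences are inhibitor minus DMSO with their standard error (SE). Whether replicates were separate cultures is not in the labels, so p-values reflect only how these arrays spread, which may be technical.

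In this pathway TGF-beta ligands are secreted bound to a latency peptide and to latent TGF-beta binding proteins, which tether them to the matrix until they are released. Active ligands join type I and type II receptor kinases, which phosphorylate Smad2 and Smad3 for TGF-beta and activin, or Smad1, Smad5 and Smad9 for BMPs. These enter the nucleus with Smad4, while Smad6 and Smad7 dampen the signal. In pre-adipocytes TGF-beta is known to hold back fat cell differentiation and some BMPs to favour it.

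The study compared cells that differentiated with and without the desaturase inhibitor. With the inhibitor, 8 members rose and 2 fell, and 34 did not pass the test (limma, adjusted p under 0.05 over all 18820 genes). The largest increases were those of Ltbp4 (1.67-fold), Ltbp1 (1.37-fold), Tgfb2 (1.36-fold) and Bmp1 (1.3-fold). Id4, Tgfbr1, Fstl1 and Tgfbr3 rose by less. The decreases were Id2, 1.49-fold lower, and Tgfb1, 1.14-fold lower. By role, 3 of the 8 genes of TGF-beta ligands and latency rose, 1 fell and 4 did not pass. Of the 9 genes grouped as activin and BMP ligands only Bmp1 rose, which encodes a protease and no ligand. None of the 8 Smad genes passed. Before adjustment 15 members had p under 0.05, beside 21.9% of all genes.

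The called share was 22.7% of the members, beside 8.00% of all genes (3.62% higher, 4.37% lower). The members were chosen with earlier results of these data known, so this share is not independent of the data. The median difference was 0.0035 over the members and -0.0037 over all genes. Of the members at or above the median level of all genes 9 of 29 were called (31%, beside 14.9% of all genes there), and below it 1 of 15 (6.67%, beside 1.09%). For 14 members the 2 groups of arrays did not overlap, as was so for 17.3% of all genes. The count of called members was 6 without DMSO 3, 6 without SCD inhibitor 1, 5 without SCD inhibitor 2 and 6 without SCD inhibitor 3. Tgfb2, Ltbp1, Ltbp4 and Bmp1 passed in each of the 17 alternative fits.

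**Figure D1:**
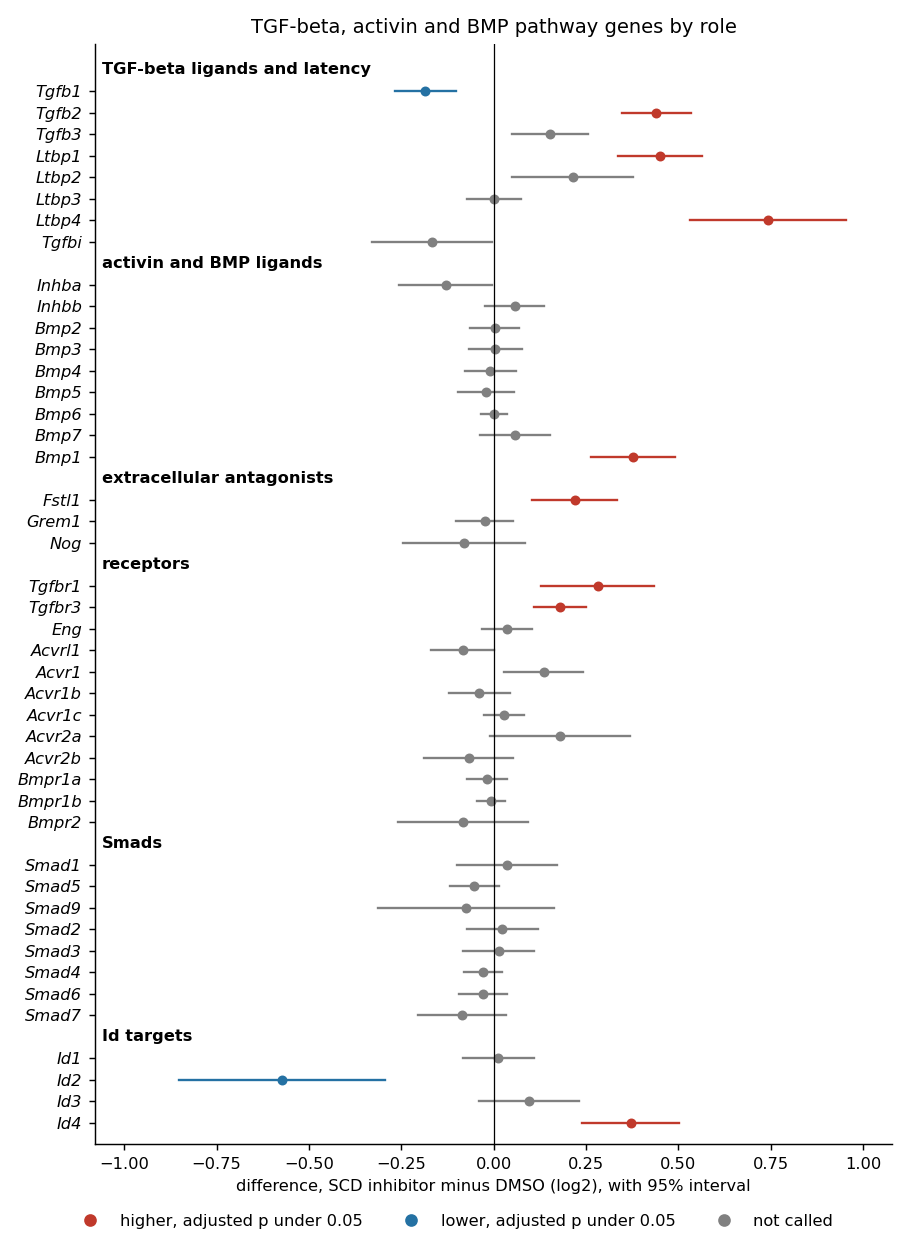
Difference between the SCD inhibitor group (3 arrays) and the DMSO group (4 arrays) for each of the 44 measured genes, on the log2 scale, with 95% intervals from limma and with the genes grouped by role. Red genes rose and blue genes fell at an adjusted p under 0.05; Ltbp4 lies farthest to the right at 0.74, Id2 farthest to the left at -0.57, and all Smad genes are grey.

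Over all genes 1505 passed, 682 higher and 823 lower. Centring each array on its median turned this split to 1296 higher and 1030 lower, leaving out SCD inhibitor 1 to 712 and 582. For the members the split was 10 higher and 2 lower with the arrays centred, and 6 higher and 0 lower without SCD inhibitor 1. The cells carried the markers of fat cells in both groups. The mean level of 9 measured adipocyte markers, such as Adipoq, Pparg and Lpl, lay between 12.02 and 12.06 on the DMSO arrays and between 12.01 and 12.06 on the inhibitor arrays. None of these markers passed in limma (2 were higher and 0 lower at p under 0.05 before adjustment). However, 7 of the 9, Lpl (12.71), Cidec (12.59) and Adipoq (12.41) among them, had a mean level above 11.88, the highest of any gene called with a difference over 0.5, so that a change in them may have been missed.

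Of 7 measured pre-adipocyte or fibroblast markers 4 rose, where 3.62% of all genes did. The marker lists were chosen with earlier results of these data known. The mean level of the 7 was 7.18 to 7.3 on the DMSO arrays and 7.6 to 7.67 on the inhibitor arrays. The growth factor receptor genes Pdgfra (0.89, SE 0.093) and Pdgfrb (0.51, SE 0.068) and the transcription factor gene Zfp521 (0.7, SE 0.040) rose. So did Dlk1 (0.32, SE 0.070), a surface inhibitor of fat cell differentiation. The adjusted p of Dlk1 in limma was 0.0402 with all arrays, 0.0826, 0.0945 and 0.123 with DMSO 2, 3 and 4 left out and 0.0836, 0.0928 and 0.129 with SCD inhibitor 1, 2 and 3 left out. That of Pdgfrb was 0.0906 without both arrays numbered 1. Of the other pre-adipocyte markers, Thy1 had a difference of 0.29, Cd34 of 0.030 and Dpp4 of -0.040, none past the test. The part of this shift in the differences of the pathway genes was not tested, and in RNA from whole cultures fewer cells of a type and less RNA per cell cannot be told apart.

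**Figure D2:**
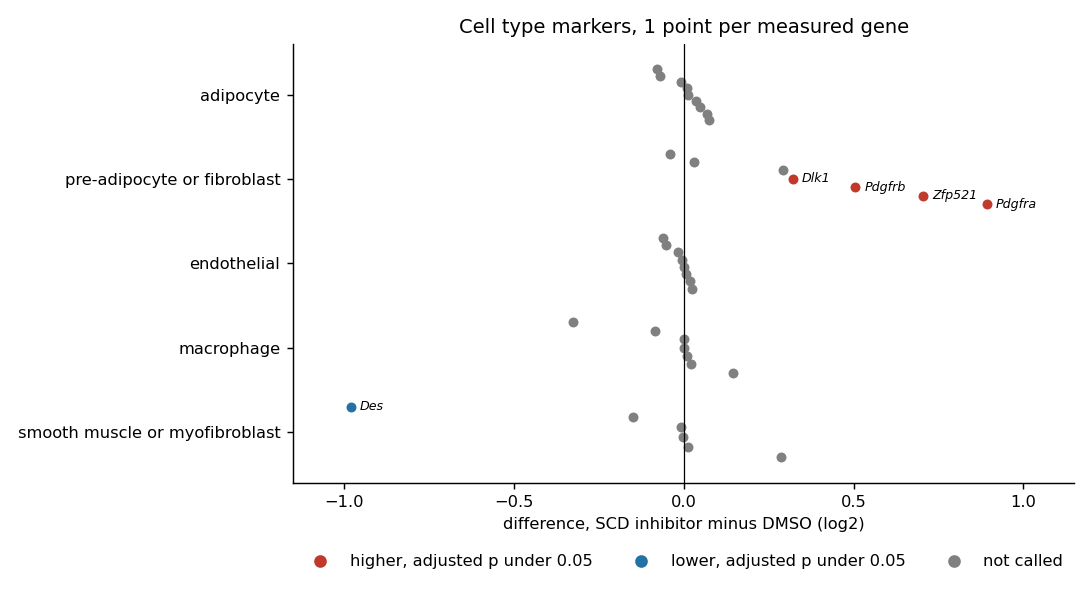
Difference between SCD inhibitor and DMSO on the log2 scale for markers of 5 cell types, with 1 point per measured gene. The adipocyte markers lie between -0.077 and 0.073, Pdgfra, Zfp521, Pdgfrb and Dlk1 of the pre-adipocyte list are red, and Des is the only blue gene.

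Of the 3 TGF-beta ligand genes 1 rose, 1 fell and 1 did not pass. Tgfb2, an isoform of embryonic and mesenchymal tissue, read 7.53, 7.44, 7.41 and 7.55 on the DMSO arrays and 7.9, 7.95 and 7.92 on the inhibitor arrays. All inhibitor arrays lay above all DMSO arrays, and the gene rose by 0.44 (SE 0.039, adjusted p = 0.0012). Tgfb1, the most widely made isoform, read 8.97, 9.03, 9.06 and 9.1 in DMSO and 8.87, 8.81 and 8.88 with the inhibitor. The groups did not overlap, but the distance was small, and Tgfb1 fell by 0.18 (SE 0.035, adjusted p = 0.0232). Its adjusted p in limma was 0.0655, 0.0747 and 0.0557 with DMSO 2, 3 and 4 left out and 0.0591, 0.0839 and 0.0648 with SCD inhibitor 1, 2 and 3 left out. Tgfb3 was at 7.78 ± 0.072 (SD, n = 4) in the DMSO group and 7.93 ± 0.038 (SD, n = 3) in the inhibitor group. Its difference of 0.15 did not pass in limma (adjusted p = 0.0913). It did pass without DMSO 4 (0.0472), with the arrays centred (0.0374), after a further quantile normalization (0.0341) and with the dimmest 50% of genes dropped (0.0467).

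Latent TGF-beta binding proteins fix the ligand to the matrix. Ltbp4, which also serves in elastic fibre assembly, read 5.64, 5.95, 5.97 and 5.85 in DMSO and 6.48, 6.64 and 6.67 with the inhibitor. DMSO 1 was the lowest array and the groups did not overlap, with a rise of 0.74 (SE 0.088, adjusted p = 0.00407). Ltbp1, a carrier of latent TGF-beta, read 7.37, 7.35, 7.43 and 7.39 in DMSO and 7.73, 7.93 and 7.84 with the inhibitor. It rose by 0.45 (SE 0.048, adjusted p = 0.0026), with no overlap. Ltbp2, which binds no latent TGF-beta, had a difference of 0.21 that did not pass (SE 0.069, adjusted p = 0.13). Ltbp3 had a difference of 0.0021 (95% interval -0.071 to 0.075). Tgfbi, a matrix protein named for its induction by TGF-beta, read 8.08, 8.06, 8.02 and 7.99 in DMSO and 7.7, 7.93 and 7.98 with the inhibitor. SCD inhibitor 1 was well below the rest, and the difference of -0.17 did not pass (adjusted p = 0.219).

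**Figure D3:**
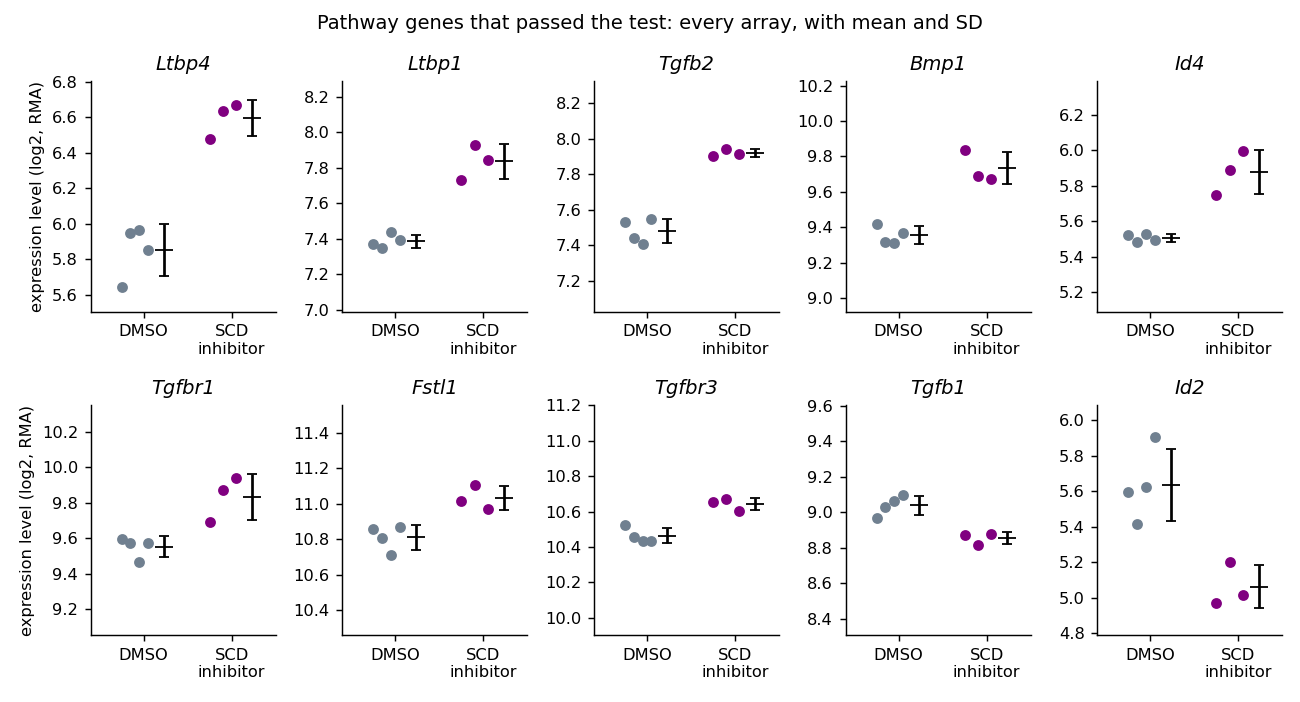
Expression level (log2) on every array for the 10 genes that passed the test, with the mean and SD of each group as a line and bar. In each panel the 3 inhibitor arrays lie wholly above or wholly below the 4 DMSO arrays.

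The sequences around the transcription starts of the 4 called members with the largest absolute differences are shown. They are RefSeq windows of build GRCm38.p6, from 250 bases before the start to 50 after it, read 5′ to 3′ on the gene's strand. The capitals mark matches to 3 motifs of Smad binding. Where a gene has several starts, the window with the most matches was taken, and then the one with the lowest start coordinate. The array does not tell which start was used.
Ltbp4 (chr7:27333599-27333898, minus strand): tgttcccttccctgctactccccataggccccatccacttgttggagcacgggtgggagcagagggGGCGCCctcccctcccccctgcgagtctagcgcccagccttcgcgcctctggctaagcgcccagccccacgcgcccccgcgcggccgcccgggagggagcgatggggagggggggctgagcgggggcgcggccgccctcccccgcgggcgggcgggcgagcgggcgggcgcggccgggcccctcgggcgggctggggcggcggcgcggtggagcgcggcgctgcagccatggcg
Id2 (chr12:25096043-25096342, minus strand): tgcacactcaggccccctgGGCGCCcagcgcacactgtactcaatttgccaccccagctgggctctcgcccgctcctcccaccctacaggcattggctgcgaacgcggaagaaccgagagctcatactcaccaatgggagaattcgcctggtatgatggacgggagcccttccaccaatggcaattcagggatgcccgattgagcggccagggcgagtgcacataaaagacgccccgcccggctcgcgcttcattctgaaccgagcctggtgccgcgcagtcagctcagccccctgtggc
Ltbp1 (chr17:75178531-75178830, plus strand): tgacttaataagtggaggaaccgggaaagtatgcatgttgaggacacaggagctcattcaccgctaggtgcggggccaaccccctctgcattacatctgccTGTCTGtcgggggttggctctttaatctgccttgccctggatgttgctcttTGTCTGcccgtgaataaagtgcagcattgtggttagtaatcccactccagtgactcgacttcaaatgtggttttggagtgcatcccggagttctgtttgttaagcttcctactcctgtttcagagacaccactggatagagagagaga
Tgfb2 (chr1:186705940-186706239, minus strand): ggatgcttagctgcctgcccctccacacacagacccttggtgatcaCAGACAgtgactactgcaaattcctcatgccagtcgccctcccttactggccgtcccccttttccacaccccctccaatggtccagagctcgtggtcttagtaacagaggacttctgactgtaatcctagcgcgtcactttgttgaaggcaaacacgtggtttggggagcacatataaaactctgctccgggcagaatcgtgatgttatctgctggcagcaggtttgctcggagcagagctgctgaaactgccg
The motifs were searched on both strands: GTCTAGAC, the palindromic Smad box; GGCGCC, a palindromic element of BMP-responsive genes; and CAGACA, which reads TGTCTG on the other strand. None of these motifs contains another. Windows were found for 32 of the 44 members and for 8 of the 10 called ones; Bmp1 and Tgfbr3 had none. The Smad box was in 0 of 12 windows of called members and in 0.213% of all 32851 windows. GGCGCC was in 5 of the 12 (41.7%), from Id2, Id4, Ltbp4 and Tgfbr1, beside 11.9% of all windows. The median G and C content was 65.5% in the windows of called members and 52.7% in all, and its part in that share was not tested. CAGACA was in 3 of the 12 (25%), from Ltbp1, Tgfb2 and Tgfbr1, beside 21% of all windows. Over all 41 windows of members, called or not, GGCGCC was in 13 (31.7%), CAGACA in 6 (14.6%) and the Smad box in 1 (2.44%). Some windows belong to the same gene, and 2 of Ltbp4 overlap, so they are not independent.

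Among the activin and BMP ligand genes, Bmp1 was the only one of 9 that passed. Despite its name it encodes a metalloprotease, which removes the C-propeptide of fibrillar procollagens and cleaves the BMP antagonist chordin. Bmp1 read 9.42, 9.32, 9.31 and 9.37 in DMSO and 9.84, 9.69 and 9.67 with the inhibitor. The groups did not overlap, and the gene rose by 0.38 (SE 0.048, adjusted p = 0.00512). The growth factor genes Bmp2 (0.0026), Bmp3 (0.0044), Bmp4 (-0.0087), Bmp5 (-0.020), Bmp6 (0.00016) and Bmp7 (0.058) did not pass. Their mean levels, such as 3.6 for Bmp4 and 4.84 for Bmp6, lay below the median level of 5.59 of all genes. No detection calls were used here, so whether these transcripts were present is not stated. Inhbb, whose product forms activin B, was at 7.24 ± 0.036 (SD, n = 4) and 7.3 ± 0.057 (SD, n = 3). Inhba, which forms activin A, was at 5.0 ± 0.0062 (SD, n = 4) and 4.87 ± 0.12 (SD, n = 3). Neither passed in limma (adjusted p = 0.388 and 0.215), although the Inhba values did not overlap.

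Of the antagonists, Fstl1, a secreted follistatin-like glycoprotein of mesenchymal cells, read 10.86, 10.8, 10.71 and 10.87 in DMSO and 11.02, 11.1 and 10.97 with the inhibitor. All 3 inhibitor arrays were higher, and Fstl1 rose by 0.22 (SE 0.048, adjusted p = 0.0402). This call ended in every fit without 1 array, with an adjusted p in limma of 0.0784, 0.109, 0.0691 and 0.0692 with DMSO 1, 2, 3 and 4 left out and 0.0993, 0.12 and 0.0678 with SCD inhibitor 1, 2 and 3 left out. Nog, which encodes the BMP trap noggin, had a difference of -0.081 (SE 0.069). Grem1, which encodes the BMP antagonist gremlin, had one of -0.024 (SE 0.032), and neither passed.

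Of 12 measured receptor genes 2 rose and 10 did not pass (16.7% called, beside 8.00% of all genes). Tgfbr3, the coreceptor betaglycan that presents TGF-beta 2 to the signalling receptors, read 10.53, 10.46, 10.44 and 10.43 in DMSO and 10.65, 10.67 and 10.61 with the inhibitor. It rose by 0.18 (SE 0.030, adjusted p = 0.0144) without overlap, and its adjusted p in limma was 0.051 and 0.0591 with SCD inhibitor 1 and 2 left out. Tgfbr1, the type I receptor kinase of TGF-beta, read 9.6, 9.57, 9.46 and 9.57 in DMSO and 9.69, 9.87 and 9.94 with the inhibitor. SCD inhibitor 1 lay close to the DMSO range, and the gene rose by 0.28 (SE 0.064, adjusted p = 0.0451). Without single arrays its adjusted p in limma was 0.0982, 0.108, 0.118 and 0.116 with DMSO 1, 2, 3 and 4 left out and 0.149 and 0.131 with SCD inhibitor 2 and 3 left out.

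The receptors of activins and BMPs did not pass. Acvr1, a type I receptor of BMPs, had a difference of 0.14 (SE 0.045, adjusted p = 0.141), and of the alternatives it passed only with the arrays centred (0.0415). Acvr2a, a type II receptor of activins and BMPs, had one of 0.18 with a wide interval (95% interval -0.0087 to 0.37). Bmpr1a, a type I receptor of BMPs, was at 10.18 ± 0.021 (SD, n = 4) and 10.16 ± 0.034 (SD, n = 3). Bmpr2, the type II receptor of BMPs, had a difference of -0.083 (SE 0.074). The activin receptor genes Acvr1b and Acvr2b had differences of -0.039 and -0.068. The BMP receptor gene Bmpr1b differed by -0.0066, and Acvr1c, which encodes the fat cell receptor ALK7, by 0.028 at a mean level of 3.47. Eng and Acvrl1, receptors known from endothelial cells, had differences of 0.036 and -0.083. The 8 endothelial markers had mean levels between 3.24 and 5.11, and none passed in limma (0 at an unadjusted p under 0.05).

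No Smad gene passed, where 8.00% of all genes did. In limma 0 of the 8 had an unadjusted p under 0.05, beside 21.9% of all genes. Smad2 and Smad3 transduce TGF-beta and activin signals. Smad2 had levels of 8.78 ± 0.066 (SD, n = 4, DMSO) and 8.81 ± 0.041 (SD, n = 3, inhibitor), and Smad3 of 8.6 ± 0.071 (SD, n = 4) and 8.62 ± 0.022 (SD, n = 3). The BMP-activated Smads differed by 0.037 (Smad1), -0.052 (Smad5) and -0.076 (Smad9). Smad4, the shared partner, differed by -0.028 (SE 0.021), and the inhibitory Smads by -0.028 (Smad6) and -0.085 (Smad7). The 95% intervals of the 8 genes reached down to -0.31, for Smad9, and up to 0.17, for Smad1. None of them gained a call in the alternatives that tested them. These are transcript levels, and Smad activity depends on phosphorylation, which was not measured.

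The Id genes encode inhibitors of helix-loop-helix transcription factors and are classical targets of BMP signalling. Of the 4, 1 rose, 1 fell and 2 did not pass. Id2 read 5.59, 5.41, 5.62 and 5.9 in DMSO and 4.97, 5.2 and 5.02 with the inhibitor. It fell by 0.57 (SE 0.12, adjusted p = 0.0312), with no overlap and with DMSO 4 the highest array. Its adjusted p in limma was 0.0867 and 0.0928 with DMSO 1 and 3 left out and 0.105, 0.0601 and 0.115 with SCD inhibitor 1, 2 and 3 left out, and 0.0508 with array weights. Id4 read 5.52, 5.48, 5.53 and 5.5 in DMSO and 5.75, 5.89 and 6.0 with the inhibitor. It rose by 0.37 (SE 0.055, adjusted p = 0.00909) without overlap. Id1, a common reporter of BMP signals, read 9.21, 9.21, 9.21 and 9.21 in DMSO and 9.32, 9.22 and 9.14 with the inhibitor. Its inhibitor arrays lay on both sides of DMSO (difference 0.013, 95% interval -0.082 to 0.11). Id3 had a difference of 0.096 (SE 0.057). Equal values recur in the deposited data. The same value stood on 3 or more arrays for 19 of the 44 members and for 10284 of all 18820 genes. This was so for 0 of the 10 called members, but a value shared by both groups works against a call.

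**Figure D4:**
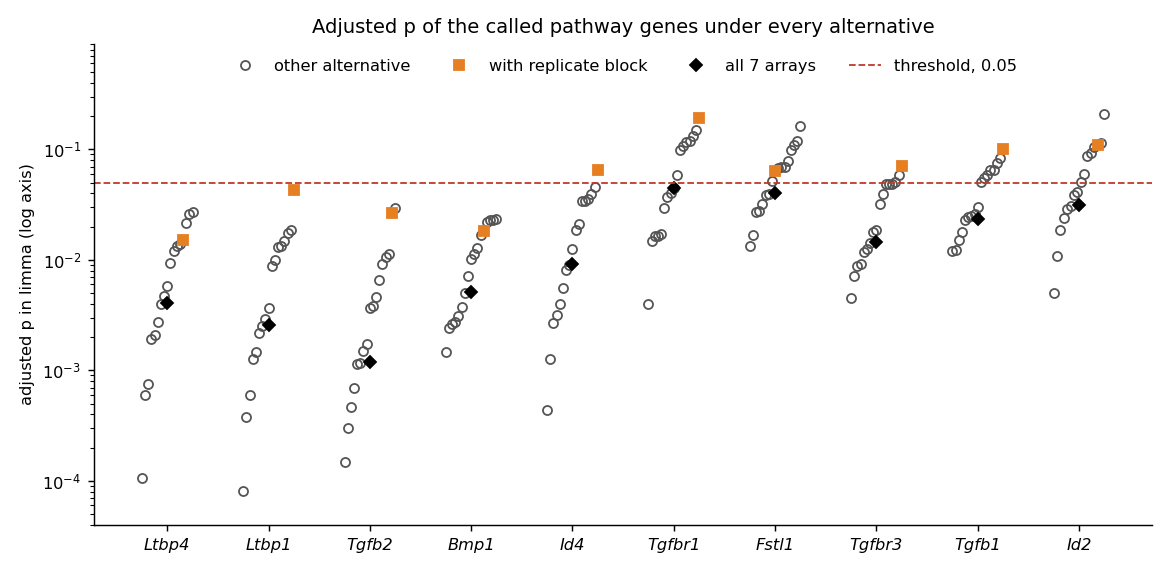
Adjusted p in limma (log axis) of the 10 called genes with all 7 arrays (diamonds), with the replicate number as a block (squares) and under the other alternatives (circles), against the threshold of 0.05. All points of Ltbp4, Ltbp1, Tgfb2 and Bmp1 lie below the line, and points of the other 6 genes lie on both sides of it.

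Further genes of the pathway came from lists of 118 genes, of which 108 were measured. Of these 12 rose and 7 fell (17.6%, beside 8.00% of all genes), and 89 did not pass. The lists were chosen with earlier results of these data known, so that share is not independent of the data. The median difference of the 108 was 0.0089. In the list of other antagonists and carriers 3 of 16 rose and 0 fell, and in that of latency and activation 3 of 14 rose and 0 fell. Bmper, a secreted modulator of BMP activity, went from 7.76 ± 0.035 (SD, n = 4) to 8.62 ± 0.17 (SD, n = 3), a rise of 0.86 (SE 0.075). Thbs1, which encodes thrombospondin 1, an activator of latent TGF-beta, rose by 0.6 (SE 0.060). The proteoglycan genes Dcn (decorin, 0.59, SE 0.059) and Aspn (asporin, 0.41, SE 0.046), whose products can bind TGF-beta, rose as well. Pcolce, which enhances procollagen cleavage by the Bmp1 product, rose by 0.47 (SE 0.037), and the secreted protease gene Htra3 by 0.39 (SE 0.045). The call of Dcn ended when both arrays numbered 1 were dropped (adjusted p = 0.0519 in limma).

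Of 20 other ligand genes 1 passed (5%, beside 8.00% of all genes). Gdf5, a BMP-like growth factor known from joint development, read 7.07, 7.02, 6.81 and 6.85 in DMSO and 6.24, 6.41 and 6.17 with the inhibitor. The groups did not overlap, and it fell by 0.66 (SE 0.083, adjusted p = 0.00512, and 0.0733 with both arrays numbered 1 left out). These values are from the brighter of its 2 clusters. With the mean of both clusters the difference was smaller, -0.45 (adjusted p = 0.0177 in limma). Among 11 other receptors and coreceptors, Rgmb, a BMP coreceptor, rose by 0.51 (SE 0.048). Tgfbrap1, a receptor-associated protein, fell by 0.24 (SE 0.049, adjusted p = 0.0311). Without single arrays its adjusted p in limma was 0.0563, 0.0917, 0.0596 and 0.0714 with DMSO 1, 2, 3 and 4 left out and 0.084 and 0.0957 with SCD inhibitor 1 and 3 left out. Bambi, a decoy receptor, differed by -0.012.

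Of 23 Smad regulators and partners 4 fell and 1 rose (21.7% called, beside 8.00% of all genes). The ubiquitin ligase gene Smurf1, whose product marks Smads and receptors for breakdown, read 9.69, 9.7, 9.71 and 9.7 in DMSO and 9.43, 9.41 and 9.41 with the inhibitor. Both groups were tight and apart, and it fell by 0.28 (SE 0.016, adjusted p = 0.00019). The related Smurf2 fell by 0.25 (SE 0.034, adjusted p = 0.00642), and by 0.21 with the mean of its 2 clusters (adjusted p = 0.0468 in limma). Runx1, a transcription factor that partners Smads, fell by 0.74 (SE 0.092), with adjusted p = 0.0584 in limma without both arrays numbered 1. Tgif1, a corepressor of Smads, fell by 0.21 (SE 0.045, adjusted p = 0.0387). Its adjusted p without single arrays in limma was 0.0999, 0.109 and 0.0991 with DMSO 1, 2 and 4 left out and 0.0589, 0.129 and 0.123 with SCD inhibitor 1, 2 and 3 left out. Tgfb1i1, a focal adhesion protein induced by TGF-beta, rose by 0.33 (SE 0.024).

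Of 17 measured genes that commonly respond to TGF-beta 5 rose, Tgfb1i1 among them, and 1 fell (35.3% called, beside 8.00% of all genes). The collagen genes Col3a1 (0.5, SE 0.042), Col1a1 (0.41, SE 0.036) and Col1a2 (0.35, SE 0.053) rose, as did the matricellular gene Postn (0.32, SE 0.034). Fn1, which encodes fibronectin, fell by 0.26 (SE 0.037; adjusted p = 0.0807 in limma without both arrays numbered 1). The feedback genes Skil (-0.14) and Pmepa1 (0.13) did not pass, nor did the contractile genes Acta2 (-0.15), Tagln (-0.0022) and Cnn1 (0.012). The collagen genes are also matrix genes of fibroblasts, and the pre-adipocyte markers rose with them; the part of one in the other was not tested. Of the smooth muscle or myofibroblast markers 1 of 6 passed, Des, which encodes desmin and fell by 0.98 (SE 0.056). Myh11 of the same list went the other way, by 0.29 (SE 0.078). It did not pass (adjusted p = 0.0845 in limma), although its groups did not overlap. None of 12 measured BMP response genes passed in limma, where 8.00% of all genes did. Before adjustment 2 were higher and 1 lower at p under 0.05, beside 21.9% of all genes. Among the BMP response genes Hey1 differed by -0.024.

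**Figure D5:**
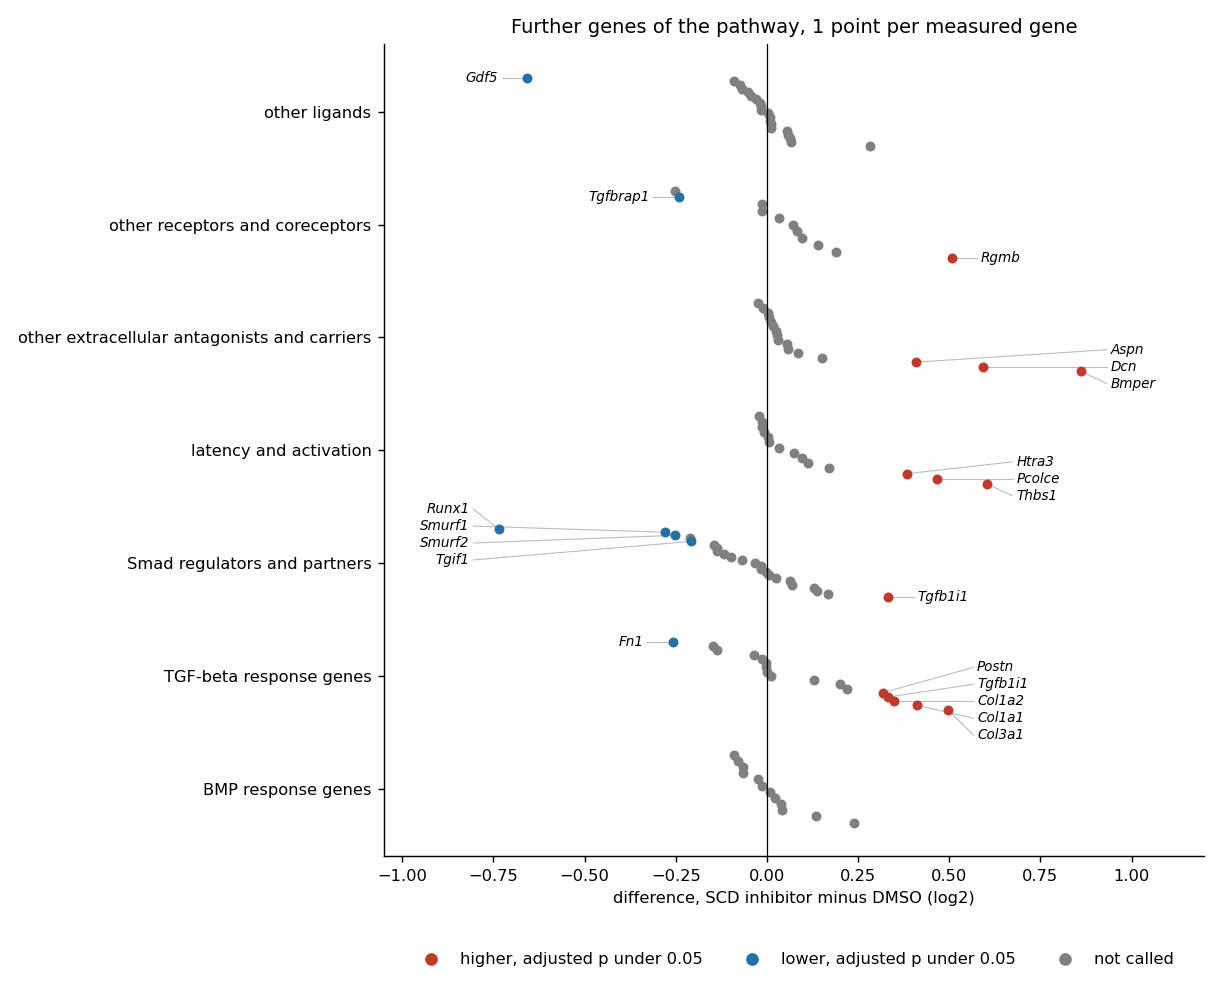
Difference between SCD inhibitor and DMSO (log2) for the 108 measured genes of the further pathway lists, with 1 point per gene and list; names stand beside the genes that passed. Bmper lies farthest to the right at 0.86 and Runx1 farthest to the left at -0.74, and the BMP response list has no coloured point.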

How the data were processed

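Per the labels' protocols, 100 ng of total RNA per sample was labelled for Affymetrix whole-transcript arrays, each sample on 1 array. The authors' deposited values are RMA expression levels on the log2 scale, per the submitters' processing notes; no version, annotation release or filter is stated there. They ran from 2.23 to 13.2. RMA can compress changes at both ends of the scale. Scanner files were not used here, and the number of arrays limits the precision.

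Of 28996 transcript clusters 21218 carried 1 symbol, and each of 18820 genes was represented by its brightest cluster on average. All 44 measured members matched RefSeq (GRCm38.p6) by Entrez number. Limma 3.58.1 (lmFit, eBayes) in R 4.3.3 fitted 1 model to all 7 arrays with a term for the inhibitor (5 residual and 1.68 prior degrees of freedom), with p-values adjusted by Benjamini and Hochberg over all genes and called under 0.05. A total of 17 alternatives were run: another normalization or centring, filters on dim genes, other rules for clusters, other variance settings, array weights, a replicate block and fits without single arrays or both arrays numbered 1. Members, lists, marker genes, motifs and alternatives were chosen with earlier results of these data known. All called members and, of the other pathway genes, every called one and the canonical response genes are named. Proteins were not printed.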

Additional observations from a re-analysis of the deposited data

Results flagged for a closer look

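In 12 of the 63 genes checked (the members and the called further pathway genes), 1 of the 4 DMSO arrays stood apart from the other 3 by Dixon's criterion (gap over range, at its 95% critical value). The rate of about 1 in 20 by chance holds for normal values without ties. Equal values recur in these data, so 12 of 63 cannot be set against that rate. Genes with equal values on all 4 DMSO arrays, such as Id1, could not be marked. DMSO 4 was the array that stood apart in 6 of the 12 genes: it read high for Bmp5 (3.47), Smad6 (6.69) and Pcolce (10.89) and low for Bmp6 (4.83), Bmp7 (4.54) and Eng (4.03). DMSO 3 read low for Inhbb (7.19), Tgfbr1 (9.46) and Acvr2a (8.04). DMSO 1 read high for Nog (5.62) and low for Acvr1c (3.45), and DMSO 2 read low for Id3 (5.93). In 9 of the 12 the other 3 arrays lay within 0.02 of each other, so that a small step is enough to stand apart. Tgfbr1 and Pcolce are the called genes among them. Without that array the difference was 0.25 for Tgfbr1 (adjusted p = 0.118 in limma) and 0.49 for Pcolce (adjusted p = 0.00225 in limma).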

How the results depend on the processing

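No call of a named gene changed direction in any alternative. Of the called members 4 kept the call in all alternatives and 6 lost it in at least 1, and of the called further pathway genes 9 kept it and 10 lost it in at least 1. The count of called members, 10 with all arrays, was 5 to 8 when 1 array was left out (5 to 7 higher, 0 to 1 lower), and 8 to 12 under the other alternatives besides the block and the fit without both arrays numbered 1 (7, with 0 lower). With array weights 1 member was called lower. With the dimmest 50% of genes dropped it was also 1, as that fit did not test Id2 (mean level 5.39, below the median of 5.59). The further pathway genes stayed between 14 and 25 called. Over all genes 949 to 1294 were called with 1 array left out, 2326 with the arrays centred and 808 without both arrays numbered 1. Fstl1 and Tgfbr1 also lost their calls with clusters of several symbols or none kept (adjusted p = 0.0523 and 0.059 in limma).

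The replicate numbers are shared between the groups, and deviations of same-numbered arrays correlated at 0.174, 0.138 and 0.08. Those of differently numbered arrays correlated between -0.171 and 0.16, and only DMSO 4 with SCD inhibitor 2 (0.16) was above 0. The main fit did not take the numbers as pairs, and whether they mark a shared batch was not tested. With the replicate number as a block 4 members were called, 4 higher and 0 lower, and 896 of all genes. Calls lost in this fit alone were those of Id4 (adjusted p = 0.0657 in limma), Rgmb (0.0504), Htra3 (0.0594), Smurf2 (0.0699) and Col1a2 (0.0749). The 3 and 4 arrays limit the precision, and 15 members had mean levels below the median of all genes, where few genes were called.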

Other observations

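Clusters annotated with a listed gene together with another gene cannot be assigned to either, and they entered no count. The cluster annotated with both Thrap3 and Fst read 7.26, 7.36, 7.14 and 7.25 on the DMSO arrays and 7.79, 7.85 and 7.81 on the inhibitor arrays, a difference of 0.56 (SE 0.050, adjusted p = 0.00165 in limma, with such clusters kept in the fit). The groups did not overlap. Fst encodes follistatin, which traps activin, and which of the 2 genes the signal came from cannot be told apart. The cluster annotated with Tgfbr2 and Mib1 differed by 0.04 (SE 0.039), and the 2 clusters annotated with Fstl3 and Prss57 by -0.01 and -0.14, none of them past the test.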
